A study of Mus musculus with 6 samples.

Results

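Keratins are the intermediate filament proteins of epithelial cells. The family in mouse ear skin was measured as 52 genes, every row of the deposited table whose symbol is Krt followed by a number and at most 1 letter, out of 18482 genes listed. The genes were placed in 6 role groups from textbook knowledge: 3 basal, 9 suprabasal, 4 stress, 15 hair shaft, 8 root sheath and 13 simple or other keratins. Krt74 and Krt85 were not analysed here. The lecko group held 3 libraries of ear skin from mice with a lymphatic-specific deletion of Kdr, the gene of VEGFR2, and the control group held 3 libraries of littermate controls. All 6 libraries came from tamoxifen-treated mice at postnatal day 21. The labels name neither the Cre driver of the deletion, nor the alleles carried by the controls, nor the animal or litter behind each library. P-values therefore measure only the spread between these samples. The comparison addresses how ear skin RNA differs between mice labelled with a lymphatic-specific deletion of Kdr and their controls. The keratins report on the epidermis and hair follicle of the same tissue.

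A keratin filament is built from paired chains, each pair holding a type I and a type II protein, so epithelial cells make the members in matched sets. Basal epidermal cells make Krt5 with Krt14. Cells that leave the basal layer switch to Krt1 or Krt2 with Krt10, wounded or irritated epidermis adds Krt6a, Krt6b, Krt16 and Krt17, and the hair shaft and inner root sheath each have sets of their own, made while a follicle grows. The 52 genes comprised 28 type I and 24 type II members. They lay in 2 clusters of the GRCm38.p6 build, 27 genes on chromosome 11 between 99232761 and 100269951 and 25 on chromosome 15 between 101348315 and 102032026, which includes the type I gene Krt18.

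Libraries held between 17242921 and 17825135 estimated reads, so depth was nearly equal between the groups. Kdr fell to 10.4 ± 0.791 CPM (reads scaled to an equal total in each library) in lecko skin, against 34.1 ± 4.39 CPM in control skin (SD, n = 3 each), which is -1.72 on the log2 scale (adjusted p = 0.000258, from the quasi-likelihood test of edgeR with adjustment by Benjamini and Hochberg). Reads of 4 Y-linked genes numbered 4, 21 and 9 in the lecko libraries and 18, 4272 and 4564 in controls 1 to 3. By these reads control 1 alone matches the sex of the lecko libraries, so genotype and sex are partly confounded, and the values of control 1 are set apart below wherever it parts from controls 2 and 3. Summed skeletal muscle markers did not overlap between the groups, at 5617 to 7218 CPM in lecko and 7514 to 8727 CPM in control skin, with all 14 fitted log2 differences below 0 and 0 past the threshold. Summed pan-leukocyte markers did not overlap either, at 558 to 710 CPM in lecko and 406 to 550 CPM in control skin, with all 14 fitted differences above 0 and 0 past the threshold. Blood endothelial markers, a list that includes Kdr itself, summed to 408 to 441 CPM in lecko and 492 to 549 CPM in control skin. All 12 of their fitted differences were below 0, and 1, that of Kdr, passed the threshold. Lymphatic markers summed to 384 to 406 CPM in lecko and 430 to 464 CPM in control skin, with 3 fitted differences above 0, 6 below and 0 past the threshold. Neither endothelial sum overlapped between the groups. Of all genes tested, 51.9% had a fitted difference above 0. None of these markers was at 0 in all 6 libraries, and their part in the keratin values was not tested, apart from the share of reads given below. In bulk skin, fewer cells of a type and less RNA per cell cannot be told apart, and the vessels in which Kdr fell cannot be named.

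None of the keratins passed the test between lecko and control skin. After a filter on low counts 37 of the 52 could be tested, and 0 of these had an adjusted p under 0.05 by edgeR, where 3 of all 14856 genes tested did (0.0202%). By direction the share of all genes past this threshold was 0.0135% higher and 0.00673% lower in lecko skin. At an unadjusted p under 0.05 edgeR gave 0 keratins, against 8.56% of all genes. Among the keratins the smallest unadjusted p-values by edgeR were 0.0524 for Krt84 and 0.0533 for Krt27, with adjusted p-values over all genes of 0.588 for Krt84 and 0.589 for Krt27. DESeq2 and limma-voom also gave 0 keratins past the adjusted threshold. Their counts at an unadjusted p under 0.05 were 2 (Krt84 and Krt27) by DESeq2 and 4 (Krt84, Krt27, Krt71 and Krt81) by limma-voom. The median log2 difference, lecko minus control, was -0.05 over the 37 tested keratins and 0.01 over all genes tested. What varied between libraries was the stress set and the hair follicle sets, and in both the spread within a group was as large as the difference between groups.

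The sequences below show what the counts of 2 sets of keratins rest on. Krt6b and Krt6a, which are neighbouring stress keratin genes, have open reading frames of 1665 and 1662 bases that are 97.8% identical, and 41.1% of the 100-base windows of Krt6b occur unchanged in Krt6a, so many reads fit both genes and the authors' estimated counts divide them. The stretch where the copies differ most, bases 802 to 876 of each reading frame on chromosome 15 (GENCODE M21 transcripts, GRCm38), is shown with the 12 differing bases in capitals.
Krt6b: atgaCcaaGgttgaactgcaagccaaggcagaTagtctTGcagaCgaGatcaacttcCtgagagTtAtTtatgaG
Krt6a: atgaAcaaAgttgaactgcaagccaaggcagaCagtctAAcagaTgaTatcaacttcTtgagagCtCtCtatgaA

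The promoters shown next belong to keratins whose reads were low in the same control libraries, as described below. They are the 250 bases before the start of transcription (RefSeq, GRCm38.p6, all on the minus strand), and capitals mark the letters TATAAA, the core of the TATA box, and CTTTGAA, a form of the LEF1 site known from mouse hair keratin promoters. Krt34 (chr11:100041555-100041804), Krt33b (chr11:100029869-100030118) and Krt31 (chr11:100050552-100050801) encode hair shaft keratins, while Krt25 (chr11:99322952-99323201) and Krt71 (chr15:101743098-101743347) encode an inner root sheath pair.
Krt34: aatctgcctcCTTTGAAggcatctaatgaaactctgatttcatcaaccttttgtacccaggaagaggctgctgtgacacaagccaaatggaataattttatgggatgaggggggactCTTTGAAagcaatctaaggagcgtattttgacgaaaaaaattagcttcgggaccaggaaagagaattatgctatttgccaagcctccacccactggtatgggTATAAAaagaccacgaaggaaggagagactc
Krt33b: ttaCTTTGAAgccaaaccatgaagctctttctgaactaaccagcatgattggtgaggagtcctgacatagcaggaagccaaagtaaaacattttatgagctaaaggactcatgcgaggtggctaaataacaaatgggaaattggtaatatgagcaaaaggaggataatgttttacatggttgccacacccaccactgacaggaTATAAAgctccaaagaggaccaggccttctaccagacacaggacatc
Krt31: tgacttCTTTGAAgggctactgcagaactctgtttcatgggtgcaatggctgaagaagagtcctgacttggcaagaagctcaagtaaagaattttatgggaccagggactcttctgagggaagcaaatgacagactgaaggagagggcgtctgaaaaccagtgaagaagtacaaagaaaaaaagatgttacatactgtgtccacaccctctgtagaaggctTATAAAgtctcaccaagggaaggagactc
Krt25: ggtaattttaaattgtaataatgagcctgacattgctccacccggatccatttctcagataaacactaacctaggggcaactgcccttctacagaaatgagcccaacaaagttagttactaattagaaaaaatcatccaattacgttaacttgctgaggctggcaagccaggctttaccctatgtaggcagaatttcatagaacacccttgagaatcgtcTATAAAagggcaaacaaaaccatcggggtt
Krt71: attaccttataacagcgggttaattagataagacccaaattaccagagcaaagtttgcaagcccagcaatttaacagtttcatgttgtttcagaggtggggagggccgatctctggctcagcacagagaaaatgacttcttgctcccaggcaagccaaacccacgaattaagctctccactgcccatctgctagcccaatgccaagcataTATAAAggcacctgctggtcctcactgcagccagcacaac

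Searched on both strands of the same 250 bases, TATAAA occurred in 7 of 8 root sheath and 6 of 9 hair shaft keratin promoters in the RefSeq table, against 13.0% of 27025 promoters, and in 0 of 2 basal ones. CTTTGAA occurred in 5 of 9 hair shaft keratin promoters (Krt31, Krt32, Krt33b, Krt34 and Krt39) and in 0 of the 8 root sheath ones, against 4.64% of all promoters. In Krt31, Krt33b and Krt34 it began 244, 247 and 240 bases before the start, and Krt34 held a further copy at 133 bases. TGANTCA, the AP-1 site, occurred in 1 of 36 keratin promoters (Krt13), against 6.87% of all; the 4 stress keratins are not among these 36. The 3 motifs do not overlap one another in the promoters shown, and a match describes letters only.

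Levels differed between keratins by more than 5 orders of magnitude. On the scale of CPM per kilobase of transcript, Krt10 led with a mean level of 6415 over the 6 libraries, followed by Krt2 at 3785, Krt14 at 1842, Krt5 at 1816 and Krt1 at 923. Krt2, which is known for its abundance in mouse ear, tail and sole epidermis, thus stood above Krt1, its alternative partner for Krt10. The levels of Krt14 and Krt5 lay within the spread of either gene over the libraries. At the other end, 23 keratins averaged under 1 CPM, among them 13 of the 15 hair shaft keratins. These levels match the labelled tissue, with epidermal keratins far above those of internal epithelia such as Krt8, Krt18 and Krt7.

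**Figure D1:**
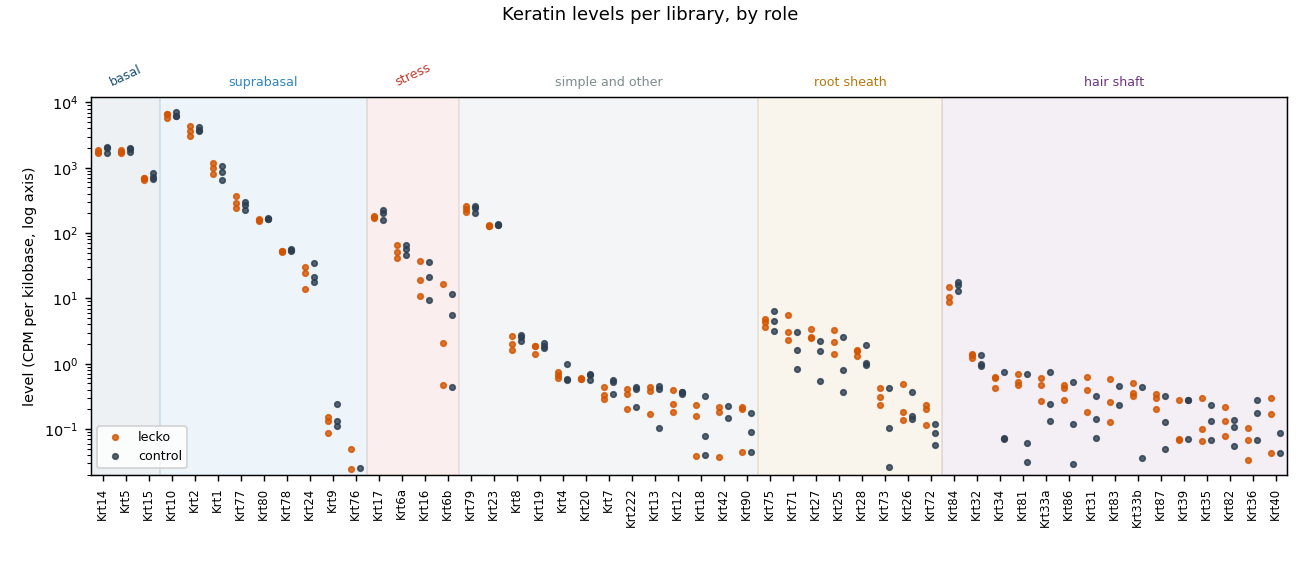
Level of each of the 52 keratins in the 3 lecko libraries (orange, left of each pair) and the 3 control libraries (dark, right) in CPM per kilobase of transcript on a log axis, by role group; libraries at 0 are not drawn. The 3 basal keratins lie close together within each gene, while Krt6b and most hair shaft and root sheath keratins spread over a wide range.

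Keratins together took 3.42, 3.84 and 3.68% of all reads in lecko libraries 1 to 3, against 3.69, 3.47 and 4.02% in controls 1 to 3. The means were 3.64 ± 0.214% in lecko and 3.73 ± 0.277% in control skin (SD, n = 3 each), a difference of -0.0816 percentage points (two-sided exact permutation p = 0.7 over 20 arrangements, whose smallest p is 0.1). With skeletal muscle reads left out of the total the difference was -0.0878 points (exact permutation p = 0.7). Krt10, Krt2, Krt5 and Krt14 made up 79.2 to 84.4% of keratin reads in lecko libraries and 82.2 to 83.7% in control libraries.

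The basal keratins differed little between the groups, with log2 differences of -0.13 to -0.11. Krt5, the type II keratin of the basal layer, was at 3782, 4051 and 3693 CPM in lecko libraries and at 4252, 3765 and 4395 CPM in controls. Its type I partner Krt14 was at 2984, 3137 and 2900 CPM in lecko libraries and at 3361, 2851 and 3533 CPM in controls. In both genes control 2 fell inside or below the lecko values while controls 1 and 3 stood above them. Krt15, a basal keratin that also marks the follicle bulge, was at 1093, 1183 and 1187 CPM in lecko libraries and at 1410, 1206 and 1149 CPM in controls. All 3 lecko libraries lay under the control mean for each of the 3 genes, yet the groups overlapped. Log2 fold changes were -0.11 for Krt5 (95% interval -0.30 to 0.07), -0.12 for Krt14 (-0.31 to 0.08) and -0.13 for Krt15 (-0.33 to 0.07), with adjusted p-values of 0.723, 0.736 and 0.715 by edgeR's quasi-likelihood test. These intervals leave out a change of 1.5-fold in either direction. With sex as a covariate Krt15 was at -0.30 (95% interval -0.54 to -0.06, unadjusted p = 0.0197 and adjusted p = 0.901 by edgeR). In that fit control 1, the highest library for Krt15, is in effect set against the 3 lecko libraries. Without controls 2 and 3, a choice made after the values were seen, Krt15 was at -0.31. The level of Krt14 over that of Krt5, both per kilobase, was 1.02, 1.00 and 1.02 in lecko libraries and 1.02, 0.980 and 1.04 in controls, so the partners kept a ratio near 1 in every library.

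Suprabasal keratins held the bulk of the reads. Krt10, the type I keratin of the differentiating layers, was at 12161, 13823 and 14143 CPM in lecko libraries and at 12881, 12868 and 14724 CPM in controls, with a log2 fold change of -0.02 (95% interval -0.23 to 0.20). Krt2, of the upper spinous layers, was at 8119, 11409 and 9555 CPM in lecko libraries and at 9869, 9521 and 10864 CPM in controls, with a log2 fold change of -0.06. Krt1, the type II keratin of the first differentiating cells, was at 2855, 1994 and 2420 CPM in lecko libraries and at 2133, 1618 and 2575 CPM in controls, with a log2 fold change of 0.20 (SE 0.19). Lecko 1 thus had the lowest Krt2 and the highest Krt1 of all 6 libraries. The reads of Krt2 over those of Krt1 were 2.84, 5.72 and 3.95 in lecko libraries and 4.63, 5.88 and 4.22 in controls. By contrast, the level of Krt10 over the summed levels of Krt1, Krt2 and Krt77 per kilobase stayed between 1.21 and 1.38 in lecko libraries and between 1.25 and 1.34 in controls.

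Krt77, a type II keratin close to Krt1, was at 1068, 846 and 702 CPM in lecko libraries and at 797, 868 and 669 CPM in controls. Its highest value was again in lecko 1. Krt80, a keratin of differentiating epithelia, was at 597, 620 and 643 CPM in lecko libraries and at 634, 669 and 637 CPM in controls. Krt78 was at 177, 184 and 183 CPM in lecko libraries and at 194, 180 and 189 CPM in controls. Both were among the steadiest genes of the family, with SEs of the log2 fold change of 0.06 and 0.05. Krt24 was looser, at 26.0, 55.6 and 46.0 CPM in lecko libraries and 33.0, 39.3 and 65.2 CPM in controls. The sole keratin Krt9 had 4 to 7 reads per lecko library and 5 to 11 per control, and Krt76 had at most 2 reads in any library, so neither was tested. Over the 7 suprabasal keratins tested, 2 log2 differences were above 0 and 5 below, with a median of -0.06 and a range of -0.11 to 0.20.

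The stress keratins Krt6b, Krt16 and Krt6a differed between libraries of 1 group far more than between groups. Krt6b (chromosome 15, 101676023 to 101680293), a type II keratin of wounded and activated epidermis, had 673, 82.9 and 18.3 estimated reads in lecko libraries and 452, 17.4 and 216 in controls. Lecko 1 and control 1 were high, lecko 3 and control 2 were near the bottom, and the highest value was 36.8 times the lowest in lecko and 26.0 times in control skin. Krt16, the type I keratin induced with it, had 1054, 523 and 302 reads in lecko libraries and 987, 265 and 571 in controls. The libraries of each group stood in the same order for Krt16 as for Krt6b. The log2 fold change was 0.15 for Krt6b, with a 95% interval of -4.12 to 4.42, and 0.02 for Krt16, with an interval of -1.85 to 1.89, so these data bound neither gene to less than a 3-fold difference.

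Krt6a, the copy of Krt6b that is also made in the follicle companion layer, had 2710, 1639 and 2065 reads in lecko libraries and 2570, 1870 and 2214 in controls. Lecko 1 and control 1 were again the highest of their groups, with a narrower span. Of the reads given to both copies, Krt6b took 19.9, 4.82 and 0.878% in lecko libraries and 14.9, 0.921 and 8.91% in controls. Counted as 1 gene, the copies had 3383, 1722 and 2083 reads in lecko libraries and 3022, 1887 and 2430 in controls, with a log2 fold change of -0.05. The level of Krt16 over that of Krt6a per kilobase was 0.566, 0.464 and 0.213 in lecko libraries and 0.559, 0.206 and 0.375 in controls. Krt17, a type I keratin of the outer root sheath that is also induced on injury, was at 274, 267 and 285 CPM in lecko libraries and at 313, 248 and 347 CPM in controls. Its log2 fold change was -0.14 (95% interval -0.38 to 0.10). Leaving out control 2 gave -0.26 (unadjusted p = 0.00375 and adjusted p = 0.172 by edgeR), and leaving out control 3 gave -0.04. With sex as a covariate, the log2 fold changes of Krt16 and Krt6b turned to -0.68 and -0.84.

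**Figure D2:**
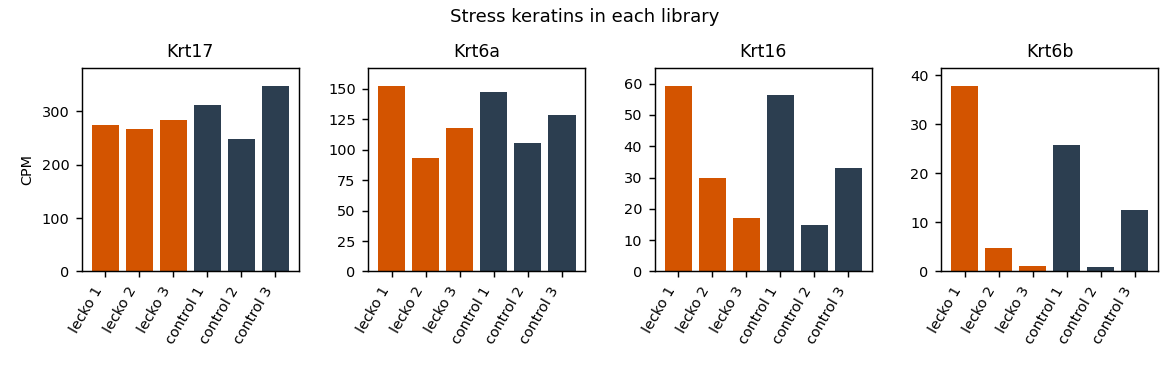
CPM of the 4 stress keratins in each library, lecko in orange and control in dark bars, each panel with its own axis from 0. Lecko 1 and control 1 hold the highest Krt16 and Krt6b of their groups, and the bars of the groups overlap in all 4 panels.

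Hair shaft keratins were scarce, and controls 2 and 3 had the fewest reads of most of them. Krt34, a type I keratin of the hair cortex, had 18, 12 and 17.2 reads in lecko libraries and 21, 2 and 2 in controls 1 to 3. Krt81, a type II partner in the same tissue, had 17.1, 15.3 and 22.6 reads in lecko libraries and 22.7, 2 and 1 in controls. Krt86, another type II cortex keratin, had 14.9, 9.75 and 16.4 reads in lecko libraries and 18.3, 1 and 4 in controls. In each of the 3 genes control 1 was above all 3 lecko libraries, and controls 2 and 3 were below all 3. The reading frames of Krt81 and Krt86 are 93.6% identical, so their separate counts also depend on how reads were divided.

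The same low pair of controls appeared in 8 of the 14 hair shaft keratins with at least 20 reads in all: Krt31, Krt32, Krt33a, Krt33b, Krt34, Krt81, Krt86 and Krt87. The pair was lowest in 0 of the 4 stress keratins, and its share over all genes was not counted. In CPM, control 1 was above both other controls in all 14 hair shaft keratins, although for Krt39 by library size alone, with 8 reads each in controls 1 and 2. Control 1 also stood above both in 6 of 8 root sheath and 3 of 4 stress keratins, and the share over all genes was not counted. Krt33b, a type I shaft keratin, had 10, 9 and 14 reads in lecko libraries and 12, 0 and 1 in controls. Krt33a, its copy with a 93.3% identical reading frame, had 14, 8 and 18.2 reads in lecko libraries and 22, 4 and 7 in controls. Krt32, of the hair cuticle, was the steadiest, with 41, 36 and 41 reads in lecko libraries and 40, 27 and 28 in controls, and a log2 fold change of 0.29 (95% interval -0.22 to 0.80). Leaving out Krt84, a choice made after the values were seen, the hair shaft keratins summed to 8.92, 6.77 and 12.2 CPM in lecko libraries and to 11.5, 3.39 and 4.06 CPM in controls.

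Krt84 (chromosome 15, 101525026 to 101532820), a hair-type keratin best known from the tongue, went its own way. It had 483, 396 and 663 reads in lecko libraries and 811, 600 and 721 in controls, more than all other hair shaft keratins together. Lecko 1 and 2 were below every control, and lecko 3 lay between controls 2 and 3. The mean level was 29.1 ± 7.82 CPM in lecko and 40.7 ± 6.32 CPM in control skin (SD, n = 3 each). The log2 fold change was -0.49 (SE 0.21, 95% interval -0.98 to 0.01) with an adjusted p of 0.588 by edgeR. With sex as a covariate the log2 fold change of Krt84 was -0.68 (adjusted p = 0.901 by edgeR).

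Controls 2 and 3 were the lowest pair in 5 of the 8 root sheath keratins: Krt71, Krt25, Krt27, Krt28 and Krt73. The share of all genes with this pair lowest was not counted. Krt71, the type II keratin of the inner root sheath, had 121, 90 and 216 reads in lecko libraries and 117, 32 and 61 in controls. Krt25, a type I partner, had 77, 49 and 116 reads in lecko libraries and 90, 13 and 28 in controls. Krt27 (chromosome 11, 99345565 to 99351118), also a type I inner root sheath keratin, had 72, 67 and 93 reads in lecko libraries and 61, 15 and 42 in controls. Lecko 3 was the highest library and control 2 the lowest for all 3 genes. Krt27 was the single tested keratin whose groups did not overlap, 1 of 37 and higher in lecko skin, against 14.1% of all genes tested in either direction and 8.15% with lecko higher. Krt28 had 45, 38 and 47 reads in lecko libraries and 54, 30 and 27 in controls. Krt75, of the companion layer between the root sheaths, had 215, 247 and 273 reads in lecko libraries and 258, 186 and 358 in controls, and its highest library was control 3. Krt26, an inner root sheath keratin, had 8, 6 and 21 reads in lecko libraries and 16, 7 and 6 in controls, and Krt72, another, had 7, 4 and 8 reads in lecko libraries and 3, 2 and 4 in controls. In neither were controls 2 and 3 the lowest pair, and both had too few reads for the filter. Without Krt75, again a choice made after the values were seen, the root sheath keratins summed to 19.0, 15.1 and 29.5 CPM in lecko libraries and to 20.4, 5.83 and 9.80 CPM in controls.

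**Figure D3:**
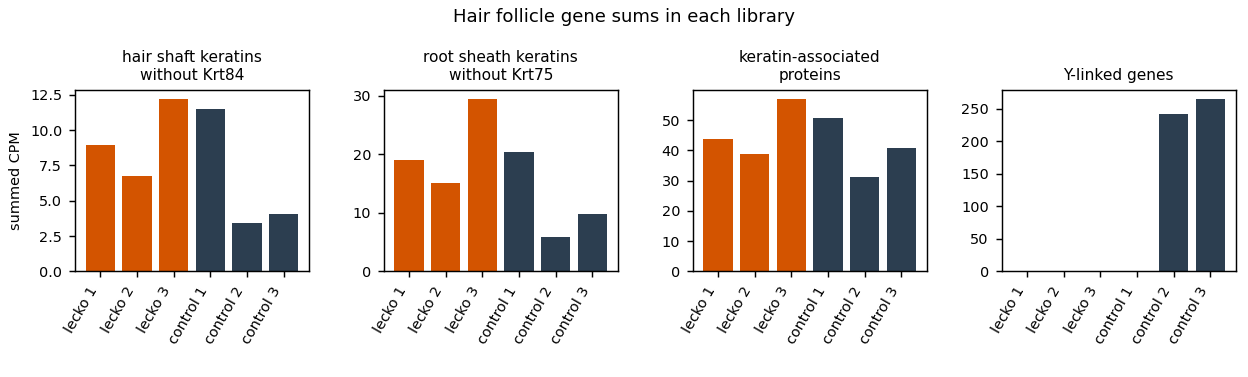
Summed CPM per library, lecko in orange and control in dark bars, for hair shaft keratins without Krt84, root sheath keratins without Krt75, keratin-associated proteins and 4 Y-linked genes, each axis from 0. Controls 2 and 3 have the lowest sums of both keratin sets and nearly all Y-linked reads, while control 1 stands with the lecko libraries.

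Fitted differences of these follicle keratins were large and loosely bounded. The log2 fold changes were 1.05 for Krt81 (SE 0.84), 0.88 for Krt34 (SE 0.76), 1.00 for Krt71 (SE 0.54) and 0.95 for Krt27 (SE 0.41), with adjusted p-values of 0.763, 0.780, 0.655 and 0.589 by edgeR. Of the 13 hair shaft and root sheath keratins tested, 11 were above 0, against 51.9% of all genes tested, with Krt84 and Krt75 below. The filter kept a low gene where 3 libraries had enough reads, which lecko skin and control 1 could supply, so this count and the medians of 0.73 over 7 hair shaft and 0.82 over 6 root sheath keratins do not stand for the full sets. Without the filter the medians were 0.50 over all 15 and 0.82 over all 8. With sex as a covariate, where control 1 is in effect set against the 3 lecko libraries, the medians turned to -0.42 for hair shaft and -0.14 for root sheath keratins. Krt81 was then at -0.35, Krt34 at -0.45 and Krt25 at -0.18, while Krt71 stayed at 0.26 and Krt27 at 0.31. Leaving out control 1 instead gave medians of 1.74 and 1.5, with 11 keratins under 0.05 before adjustment and 0 after it by edgeR (smallest adjusted p = 0.396). Leaving out control 2 gave 0.29 and 0.42, and leaving out control 3 gave 0.49 and 0.27. The medians above 0 of both follicle sets therefore rest on controls 2 and 3, where genotype cannot be told apart from sex or from the spread between libraries. For Krt27, control 1 too was below all 3 lecko libraries, at 3.49 against 3.81 to 5.30 CPM.

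**Figure D4:**
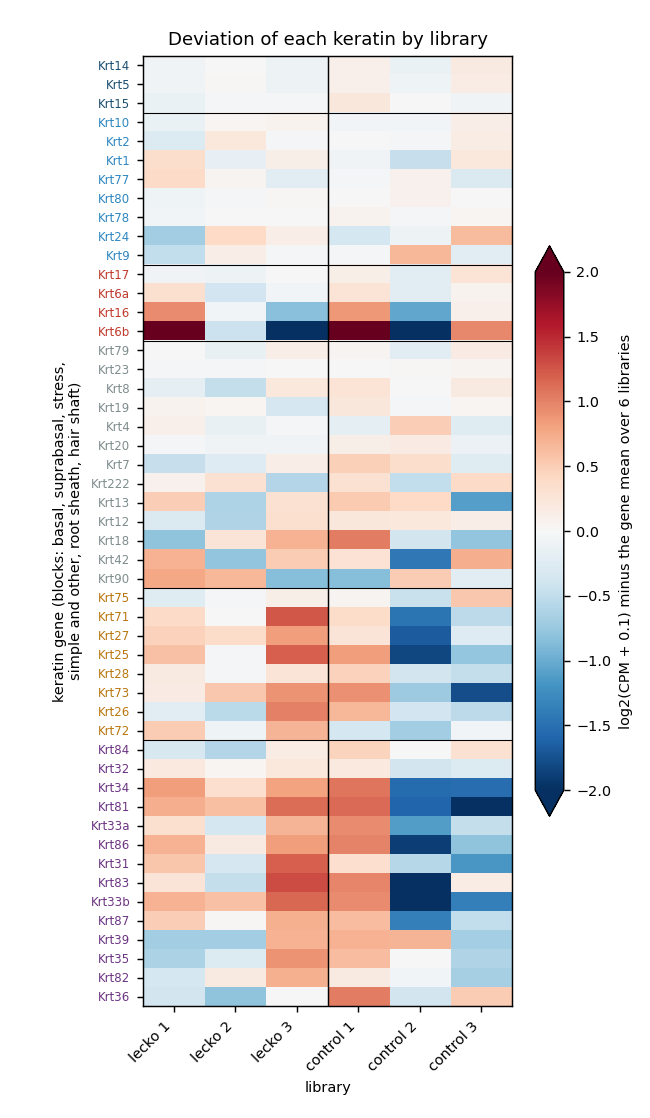
Deviation of log2(CPM + 0.1) from the gene's mean over the 6 libraries, for the keratins with at least 20 reads in all, red above and blue below the mean, the colour scale ending at 2 in either direction. Root sheath and hair shaft blocks are mostly blue in controls 2 and 3 and mostly red in control 1 and lecko 3. Krt16 and Krt6b are reddest in lecko 1 and control 1, and Krt6b is also red in control 3.

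Among keratins of simple and other epithelia, the abundant Krt79 and Krt23 differed little, and those with few reads were loosely bounded. Krt79, a type II keratin of the hair follicle funnel and sebaceous duct, was at 491, 445 and 542 CPM in lecko libraries and at 511, 427 and 551 CPM in controls. Krt23 was at 204, 202 and 210 CPM in lecko libraries and at 208, 211 and 218 CPM in controls. Krt23 had the smallest SE of the family, 0.05, around a log2 fold change of -0.05 (95% interval -0.16 to 0.06). Krt8, a simple epithelial keratin that Merkel cells also make, had 69, 55 and 90 reads in lecko libraries and 94, 78 and 86 in controls. Krt7, of simple epithelia, had 21, 24 and 32 reads in lecko libraries and 41, 38 and 24 in controls, with a log2 fold change of -0.44 (95% interval -1.08 to 0.20). Both had lower means in lecko skin, and in both the groups overlapped. Krt20, a Merkel cell keratin, had 21, 20 and 20 reads in lecko libraries and 23, 24 and 19 in controls, and Krt19, of the follicle bulge, had 53, 51 and 39 reads in lecko libraries and 58, 49 and 50 in controls. Of the 10 tested, 9 log2 differences were below 0, with a median of -0.14, and Krt13 was at 0.03. Of all genes tested, 51.9% were above 0. Krt4, the type II partner of Krt13 in the lining of mouth and oesophagus, had 28, 23 and 25 reads in lecko libraries and 22, 37 and 21 in controls, a log2 fold change of -0.10, with control 2 the highest library.

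**Figure D5:**
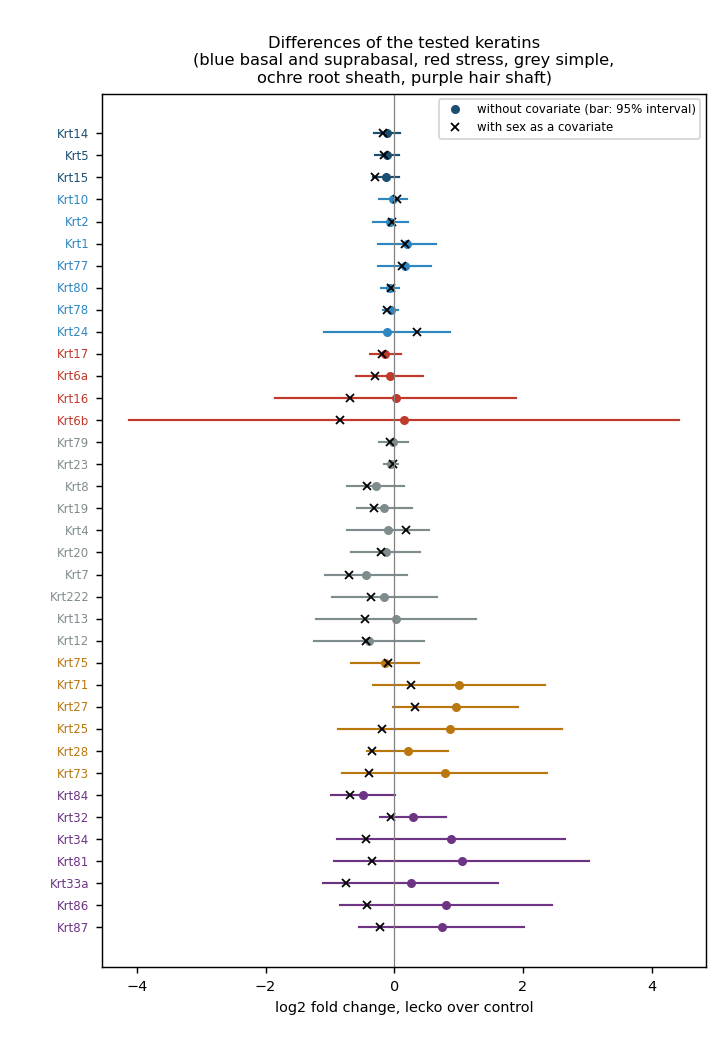
Log2 fold change of each of the 37 tested keratins, lecko over control, with its 95% interval (dot and bar, coloured by role), and the value with sex as a covariate (cross). Basal intervals are short and include 0, the suprabasal Krt24 interval is wider than those of Krt32 and Krt84, the Krt6b interval runs from -4.12 to 4.42, and the crosses of Krt81, Krt34 and Krt25 lie on the other side of 0 from their dots.

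Genes that act with keratins were read from lists. Of 19 tested genes for linkers, cross-linking enzymes and filament-bundling proteins, 0 passed the threshold by edgeR, and 2 higher and 1 lower had an unadjusted p under 0.05, 3 of 19 against 8.56% of all genes tested. The filaggrin gene Flg, whose product bundles keratin filaments in the outer epidermis, had 11527, 12728 and 13635 reads in lecko libraries and 10149, 9608 and 11240 in controls, all lecko values being above all control reads. Its log2 fold change was 0.27 (SE 0.08, adjusted p = 0.504 by edgeR), and in CPM the lowest lecko and the highest control value crossed. Plec, the plectin gene that ties keratins to hemidesmosomes, had a log2 fold change of -0.16 (adjusted p = 0.554 by edgeR). Evpl, which encodes envoplakin of the cornified envelope, was at -0.11, Dsp, which encodes desmoplakin, at -0.06 and Hrnr, a filaggrin relative, at 0.11. Tchhl1, a trichohyalin-like gene, had 32, 10 and 48 reads in lecko libraries and 16, 5 and 7 in controls, and Tchh, the trichohyalin gene of the inner root sheath, had 321, 196 and 401 reads in lecko libraries and 329, 97 and 172 in controls. Tchh again placed control 1 with the lecko libraries. The median log2 difference of the linker, enzyme and bundling list was -0.06. Over the 13 tested non-keratin follicle genes, Tchh and Tchhl1 among them, 6 log2 differences were above 0 and 7 below, with a median of -0.06. Tchhl1 and Prr9, 2 of 13 and higher in lecko skin, had an unadjusted p under 0.05 by edgeR, against 8.56% of all genes tested. Prr9 had 108, 73 and 103 reads in lecko libraries and 86, 44 and 41 in controls, with controls 2 and 3 lowest. Its log2 fold change was 0.71 (adjusted p = 0.575 by edgeR). Crym was at -0.36, Dlx3 at 0.05 and Sox21 at -0.06. That follicle list summed to 136 to 159 CPM in lecko and 129 to 158 CPM in control skin, and 0 of its genes passed the threshold by edgeR.

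Transcription factors that control keratin genes gave 0 of 24 past the threshold by edgeR and 1 at an unadjusted p under 0.05, against 8.56% of all genes tested. That gene was Vdr, the vitamin D receptor gene needed for hair cycling, with 1288, 1292 and 1378 reads in lecko libraries and 1577, 1477 and 1546 in controls. Its log2 fold change was -0.24 (SE 0.06, adjusted p = 0.385 by edgeR). In CPM the groups did not overlap for Vdr, Trp63 and Lhx2, 3 of 24 with lecko lower, against 6% of all genes tested in that direction and 14.1% in either. The gap was narrow for Trp63, with the highest lecko library at 415 CPM and the lowest control at 417 CPM. For Lhx2 these were 12.88 and 12.90 CPM. Trp63, the master regulator of basal keratinocytes, had a log2 fold change of -0.19, Tfap2a, an activator of basal keratin genes, -0.16, Lhx2, a follicle stem cell factor, -0.26, and Klf4, a factor of the epidermal barrier, -0.02. Among regulators of the hair shaft set, named here after their values were seen, the log2 fold change was 0.06 for Hoxc13, -0.12 for Foxn1, -0.16 for Msx2 and 0.11 for Lef1. The list had a median of -0.03, close to that of all genes.

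Keratin-associated proteins, the matrix in which hair keratins are embedded, summed to 43.8, 38.6 and 56.9 CPM in lecko libraries and to 50.8, 31.3 and 40.9 CPM in controls. Of their 50 genes 15 could be tested and 0 passed by edgeR. Lecko 3 was highest and control 2 lowest, as for the root sheath keratins. Melanocyte markers, which follow pigmented hair growth as well as skin pigment, summed to 212 to 270 CPM in lecko and 166 to 228 CPM in control skin.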

How the data were processed

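RNA of ear skin was measured by sequencing in 3 lecko and 3 control libraries. The deposited table holds estimated counts per gene, per the file headers and the values, and between 9.60% (lowest library) and 10.5% (highest) of them carry decimals. Per the submitters' processing notes, RSEM 1.3.1, Bowtie2 2.4.5 and HISAT2 2.2.1 were used with the GRCm38.p6 build, in an order left unstated; strand setting and annotation are not given there. Reads shared by near-identical keratins were divided by that estimation.

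Counts were rounded to whole numbers and fitted with edgeR 4.0.16 in R 4.3.3 (TMM scaling, filterByExpr with a minimum count of 10, robust quasi-likelihood test, Benjamini-Hochberg adjustment over all 14856 genes, threshold 0.05). CPM is the count over the library total, and levels between genes are per kilobase of the longest protein-coding GENCODE M21 transcript. DESeq2 1.42.0, limma-voom (limma 3.58.1), other scalings and filters, sex as a covariate, and leaving out each library were alternatives. The fit was tested on simulated data. The members and lists were chosen with earlier results of these data known. In each role group the keratins described by library are up to 6 with the highest mean CPM, any past the threshold and the 2 with the smallest p, and of partner lists the 4 with the smallest p and the 2 with the highest CPM; the others named were chosen after their values were seen. A library with over 10 CPM of Y-linked reads was taken as male. With totals near equal, precision is limited by the spread between libraries, and for keratins under 20 reads by counting as well.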

Additional observations from a re-analysis of the deposited data

How the results depend on the processing

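No keratin passed the adjusted threshold under any alternative that was run. Of 505 refitted values of the 30 named keratins tested, 462 kept their sign and 43 reversed, and 14 of these keratins reversed nowhere. Over all genes DESeq2 called 32, and leaving out 1 library gave 3 to 37 calls, the most without control 2. Krt76, Krt9 and 8 of the 15 hair shaft keratins had too few reads for the filter over all 6 libraries, and the cause of the changes below was not tested.

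With sex as a covariate, median log2 differences were 0.041 for suprabasal, -0.42 for hair shaft, -0.14 for root sheath and -0.34 for simple and other keratins, with -0.17 for basal and -0.49 for stress keratins. Without controls 2 and 3, which exceed the Y-linked threshold, an alternative chosen after seeing the data, they were 0.035, -0.39, -0.19 and -0.35, with -0.18 and -0.49. In these 2 fits the sign turned for Krt32 (-0.052 and -0.058), Krt81 (-0.35 and -0.36), Krt33a (-0.74 and -0.75), Krt34 (-0.45 and -0.45), Krt86 (-0.42 and -0.43), Krt25 (-0.18 and -0.19), Krt28 (-0.34 and -0.35), Krt4 (0.18 and 0.17), Krt16 (-0.68 and -0.69), Krt6b (-0.84 and -0.84) and Krt10 (0.041 and 0.035). Krt6b also turned to -0.26 by limma-voom and to -0.052 when summed with Krt6a, a sum also chosen after seeing the data.

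Leaving out each library in turn gave medians of -0.17 to -0.08 for basal, -0.063 to 0.035 for suprabasal, -0.44 to 0.30 for stress, 0.29 to 1.74 for hair shaft, 0.27 to 1.5 for root sheath and -0.24 to -0.09 for simple and other keratins. The share of reads differed by -0.211 to 0.0644 percentage points, and was higher in lecko skin without lecko 1 or without control 3. The sign turned within the ranges of Krt10 (-0.058 to 0.035), Krt2 (-0.19 to 0.036), Krt77 (-0.029 to 0.29), Krt16 (-0.59 to 0.56), Krt6a (-0.29 to 0.084), Krt6b (-2.21 to 1.13), Krt33a (-0.14 to 1.23), Krt75 (-0.35 to 0.12), Krt79 (-0.11 to 0.055) and Krt4 (-0.24 to 0.21).

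Whether the shared replicate numbers pair the samples cannot be settled from these values. Deviations of same-numbered libraries correlated at 0.337 (lecko 1 with control 1), -0.0721 and 0.0355. Those of differently numbered libraries correlated at -0.285 to 0.234, so lecko 1 with control 1 was the highest pair. With the replicate number as a block 3 genes and 0 keratins were called, and Krt6b was at -0.16.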
